A study of Caenorhabditis elegans with 2 samples.

Results

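Small nuclear RNA (snRNA) genes were taken from the RefSeq annotation of the Caenorhabditis elegans genome build WBcel235, which has the sequence of ce11. All nuclear genes of the biotype snRNA were kept except those whose names start with sls-, the spliced-leader genes. The rule gave 99 of 46890 nuclear genes, of which 12 lie on chromosome I, 13 on II, 7 on III, 36 on IV, 28 on V and 3 on X. A gene was counted in a list of regions when the summit of a region, its point of highest signal, lay inside the gene or within 250 bp of it. The rule used the gene names and biotypes and no measured value.

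Binding of a tagged protein to DNA was measured by chromatin immunoprecipitation and sequencing (ChIP-seq) in whole hermaphrodites of strain OP543, which carries SDZ-38 with a GFP-FLAG tag at its C-terminal end. The worms were synchronized by starvation of L1 larvae and collected 64 hours later as young adults, and 2 biological replicates made up the only group. The description names an anti-GFP antibody, while another label gives the antibody as sdz-38. Each replicate has a lenient list of regions, and a pooled list joins both. A short optimal list was cut by the irreproducible discovery rate, a measure of how alike regions rank between lists. It held the 102 pooled regions with an authors' signal value of 62.65 or more. Absence from it thus went with a lower pooled signal. The promoter that drives the tagged protein is not given in the sources used here, and no worms without the tag and no second condition are analysed here. The material is whole animals, so no value belongs to 1 tissue, and that a region marks SDZ-38 itself was not tested.

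The snRNAs are the RNA cores of the spliceosome. U1 RNA pairs with the 5′ splice site, U2 RNA with the branch point, U5 RNA holds the exons through a loop, and U6 RNA, which arrives paired with U4 RNA, takes over the 5′ splice site through its ACAGAGA box. U6 genes are transcribed by RNA polymerase III from promoters with a TATA box, the others by RNA polymerase II, and both kinds carry an upstream proximal sequence element that the complex SNAPc binds. The SmY RNAs of nematodes are linked to spliced-leader trans-splicing.

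RefSeq does not name the U class of most of these genes, so they were grouped by sequence. Genes with at least 80% identity were joined, and each group was called by the letters of a well-known part of the RNA. The U6-type group of 23 genes was named for ACAGAGA, which 22 of them hold. The U2-type group of 19 genes was named for GTGTAGTATCTGTTCT, held by 18. The U1-type group of 13 genes was named for ACTTACCTG, held by 12, and it includes sup-6 and sup-39, U1 genes known from suppressor mutations. The U5-type group of 12 genes was named for the letters of the U5 loop, held by 11, and the U4-type group of 5 genes for AGCTTTGCGC, held by all 5. The smy genes numbered 10, and 17 genes fell into no family. Within the families the median identity between genes was 99% for U6-type, 98.9% for U2-type, 95.2% for U1-type, 93.5% for U5-type and 99% for U4-type.

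The sequences below show 1 gene each of the U1-type, U4-type and U2-type families, each the gene of its family with the highest pooled signal, and a close relative of sup-6. C52E4.8 and F11A5.14 are the only genes of their families with a pooled summit, at ranks of 995 and 550 in that list. They are RefSeq sequences of build WBcel235, written 5′ to 3′ on the strand of the gene, and the capitals mark the family letters given above.
sup-6 (chrII:12944803-12944967, minus strand): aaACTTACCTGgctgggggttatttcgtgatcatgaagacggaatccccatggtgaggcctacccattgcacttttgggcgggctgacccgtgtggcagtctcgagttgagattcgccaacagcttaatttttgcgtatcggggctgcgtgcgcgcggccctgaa
sup-39 (chrII:6968394-6968558, minus strand): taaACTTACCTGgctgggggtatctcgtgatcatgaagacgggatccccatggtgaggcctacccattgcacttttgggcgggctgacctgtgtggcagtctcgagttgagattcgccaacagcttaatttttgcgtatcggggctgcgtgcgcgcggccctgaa
C52E4.8 (chrV:11980118-11980261, plus strand): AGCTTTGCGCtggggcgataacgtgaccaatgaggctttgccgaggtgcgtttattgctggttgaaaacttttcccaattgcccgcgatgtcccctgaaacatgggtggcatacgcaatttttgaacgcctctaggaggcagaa
F11A5.14 (chrV:16225701-16225887, minus strand): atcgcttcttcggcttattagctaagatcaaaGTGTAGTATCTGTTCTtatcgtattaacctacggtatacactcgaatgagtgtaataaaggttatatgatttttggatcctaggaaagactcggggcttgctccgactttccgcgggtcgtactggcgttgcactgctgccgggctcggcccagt
The genes sup-6 and sup-39 were 97% identical, with 5 single-base edits between them.

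The next sequences are the 90 bases before the 5′ end of genes of each family, shown because the promoter letters described further on stand there. Capitals mark the longer letters GCGNAACCCG, where N is any base, the letters TGTCGG of the proximal sequence element, and TATA-box letters. K09B11.11 has the same gene sequence as W05B2.8 but no region in any list.
sup-6, 90 bases upstream (chrII:12944968-12945057, minus strand): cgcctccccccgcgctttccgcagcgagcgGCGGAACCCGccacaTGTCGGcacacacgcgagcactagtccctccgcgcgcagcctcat
F38E11.10, 90 bases upstream (chrIV:9444552-9444641, plus strand): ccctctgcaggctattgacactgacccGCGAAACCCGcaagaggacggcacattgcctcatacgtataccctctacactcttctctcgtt
C52E4.8, 90 bases upstream (chrV:11980028-11980117, plus strand): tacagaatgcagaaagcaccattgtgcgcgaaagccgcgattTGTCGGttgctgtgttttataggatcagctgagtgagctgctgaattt
F11A5.14, 90 bases upstream (chrV:16225888-16225977, minus strand): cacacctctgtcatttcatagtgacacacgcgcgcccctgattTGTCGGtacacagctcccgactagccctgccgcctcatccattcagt
W05B2.8, 90 bases upstream (chrIII:10989589-10989678, plus strand): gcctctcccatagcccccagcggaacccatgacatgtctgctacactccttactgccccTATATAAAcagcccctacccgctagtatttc
K09B11.11, 90 bases upstream (chrIV:13435887-13435976, minus strand): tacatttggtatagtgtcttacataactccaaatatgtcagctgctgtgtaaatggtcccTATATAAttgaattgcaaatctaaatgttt

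In the optimal list 2 of the 99 snRNA genes had a summit, W05B2.8 and sup-6, which is a share of 2.02% (exact Clopper-Pearson 95% interval 0.246 to 7.11%, counting error over genes only). Over all nuclear genes the share was 0.316%, and over the 7869 nuclear genes as long as the snRNA genes (22 to 187 bp) it was 0.991%, and both lay inside that interval. The limit of 22 bp comes from mir-1831 alone, as the other snRNA genes are at least 77 bp long. The 7869 genes include the snRNA genes themselves, and no share with a limit of 77 bp was computed. In the pooled list 11 snRNA genes had a summit, or 11.1% (5.68 to 19%), against 2.99% of all nuclear genes and 5.12% of the genes of that length. In replicate 1 the number was 33, or 33.3% (24.2 to 43.5%), against 25.1% and 20%. In replicate 2 it was 23, or 23.2% (15.3 to 32.8%), against 19.6% and 16.2%. The intervals of the pooled and replicate 1 shares lay above the share of genes of the same length, and those of the optimal and replicate 2 shares included it. The intervals of both replicate shares also included the share of all nuclear genes. Some genes share a summit, so the 11, 33 and 23 genes had 10, 31 and 22 distinct strongest summits. No interval was computed with a shared summit counted once, and the pooled lower limit of 5.68% lies close to 5.12%.

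Other classes of short RNA genes had summits as often or more often. In the pooled list the share was 23.5% of 612 tRNA genes, 14.5% of 346 snoRNA genes and 16.7% of the 30 spliced-leader genes. The snRNA interval of 5.68 to 19% held the snoRNA and spliced-leader shares but not the tRNA share. In replicate 1 the shares were 51.5%, 32.9% and 33.3%, and in replicate 2 they were 46.1%, 30.3% and 30%, for tRNA, snoRNA and spliced-leader genes. In the optimal list the 2.02% of the snRNA genes stood beside 3.76% for tRNA, 4.91% for snoRNA and 16.7% for spliced-leader genes.

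Among the 1000 strongest regions of each replicate, which are ranked within that replicate, 9 snRNA genes (9.09%) had a summit in replicate 1 and 7 (7.07%) in replicate 2. The share of all nuclear genes was 2.44% and 2.43%, and that of genes of the same length 3.77% and 4.02%. W05B2.8, sup-6 and F38E11.10 were counted in both of these sets of 1000. The others were sup-39 with its nested mir-1831, F54D8.7, F11A5.14, F42C5.12 and C52E4.8 in replicate 1, and H27M09.6, F40G12.14, Y57G11C.35 and smy-1 in replicate 2.

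The 2 replicates shared 16 snRNA genes with a summit, 16.2% of the 99, against 11.7% of all nuclear genes and 8.53% of genes of the same length. These 16 were 48.5% of the genes with a summit in replicate 1 and 69.6% of those in replicate 2. Over all nuclear genes the same shares were 46.9% and 59.9%, so the replicate 1 share was close to that of all genes, and over genes of the same length they were 42.7% and 52.7%. Another 17 genes had one in replicate 1 alone and 7 in replicate 2 alone, and 59 had none in either. Of the 16 genes, 10 also had a pooled summit. The pooled gene outside the 16 was F11A5.14. The 6 genes of both replicates without a pooled summit were F08G2.10, F56H6.15, C47F8.9, F40G12.14, ZK897.4 and F38E11.11. By rank as a share of the list, replicate 1 placed F08G2.10, C47F8.9 and ZK897.4 higher, at ranks of 1724, 1255 and 11136. Replicate 2 placed F56H6.15, F40G12.14 and F38E11.11 higher, at ranks of 2510, 663 and 6446.

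**Figure D1:**
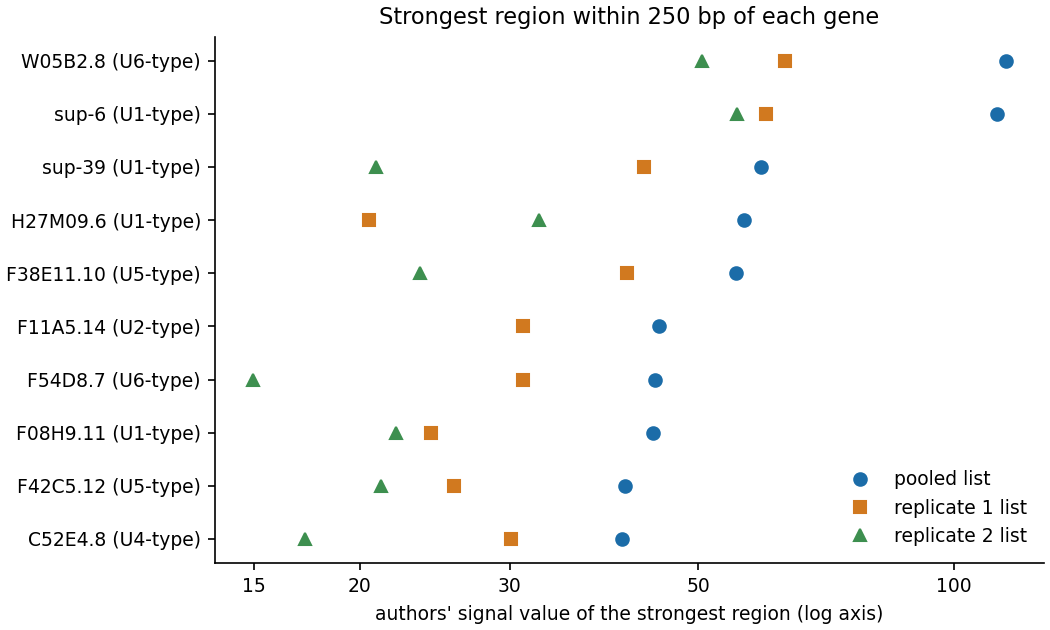
The authors' signal value of the strongest region within 250 bp of each snRNA gene with a pooled summit, on a logarithmic axis, with circles for the pooled list, squares for replicate 1 and triangles for replicate 2. W05B2.8 and sup-6 lie at 115 and 112 in the pooled list and are the only genes shown above 50 in either replicate, F11A5.14 has no replicate 2 point, and mir-1831, which shares the regions of sup-39, is not drawn.

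The strongest snRNA region lay at W05B2.8, a U6-type gene on the plus strand of chromosome III in an intron of dhc-4, which encodes a dynein heavy chain. Its signal value, a score of the authors with no stated scale, was 115 in the pooled list, 63.2 in replicate 1 and 50.5 in replicate 2. The ranks were 27 of 1242, 23 of 17743 and 30 of 12648, so both replicates placed it among their strongest regions. Among nuclear regions alone the pooled rank was 6. The summits of both replicates fell on the same base, 26 bp upstream of the 5′ end of the gene, and the pooled summit 3 bp inside it. A further region followed it in every lenient list, with pooled signal 50.7 and its summit 237 bp from the 5′ end.

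The next strongest lay at sup-6, a U1 gene on the minus strand of chromosome II in an intron of F58G1.7. Its signal was 112 in the pooled list, 60.1 in replicate 1 and 55.6 in replicate 2, with ranks of 29, 27 and 26. Its nuclear rank in the pooled list was 8. The pooled summit lay 148 bp from the 5′ end, near the 3′ end of the 165 bp gene, and the replicate summits 27 bp from each other. A weaker region of pooled signal 49.6 had its summit 51 bp upstream of the gene. The summits thus lay toward opposite ends of the gene, while each region covered all of it.

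The other U1-type genes with a pooled summit were sup-39, H27M09.6 and F08H9.11. At sup-39, in an intron of C15F1.5, the signal was 59.2 in the pooled list (rank 124), 43.1 in replicate 1 (rank 52) and 20.9 in replicate 2 (rank 1457). At the intergenic H27M09.6 it was 56.6 in the pooled list (rank 160), 20.5 in replicate 1 (rank 3403) and 32.5 in replicate 2 (rank 96). The replicates thus ranked these genes in opposite orders, sup-39 high in replicate 1 and H27M09.6 high in replicate 2. At F08H9.11 the signal was 44.2 in the pooled list (rank 607), 24.2 in replicate 1 (rank 1349) and 22.1 in replicate 2 (rank 1024). RefSeq also lists mir-1831, 22 bp long, as an snRNA gene nested inside sup-39, and its region is that of sup-39. Counting genes closer than 500 bp as 1 locus left 92 loci and 10 with a pooled summit.

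The U5-type genes with a pooled summit were F38E11.10 and F42C5.12. F38E11.10 had a signal of 55.4 in the pooled list (rank 175), 41.3 in replicate 1 (rank 62) and 23.6 in replicate 2 (rank 674). F42C5.12, in an intron of F42C5.9, had 41.1 (rank 940), 25.8 (rank 937) and 21.2 (rank 1346) in the same order. F38E11.11 has the exact gene sequence of F38E11.10. It had a summit in both replicates, with signals of 14.3 and 15.4, and none in the pooled list.

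The last 3 genes with a pooled summit belonged to other families. F54D8.7, U6-type, had 44.4 in the pooled list (rank 590), 31.1 in replicate 1 (rank 285) and 15 in replicate 2 (rank 7220). F11A5.14, U2-type, had 45 in the pooled list (rank 550) and 31.1 in replicate 1 (rank 281), and the nearest replicate 2 summit lay 4442 bp away. C52E4.8, U4-type, had 40.6 in the pooled list (rank 995), 30.1 in replicate 1 (rank 346) and 17.3 in replicate 2 (rank 3943). F54D8.7 and C52E4.8 thus ranked higher in replicate 1 than in replicate 2, and C52E4.8 lay just above the smallest pooled signal of 39.05. The optimal list ended at a signal of 62.65 and held the 102 pooled regions at or above it, so sup-39 at 59.2 was the snRNA gene closest below that limit and sup-6 the closest above.

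No smy gene had a pooled summit. smy-1, in an intron of C33A12.3, had a summit in replicate 2 alone, with a signal of 27.9 and rank 228. The neighbours smy-9 and smy-10 had summits in replicate 1 alone, with signals of 15.6 and 16.2 and ranks of 10967 and 9410. With 10 smy genes, 0 pooled summits left an exact interval of 0 to 30.8%. Of the 17 genes outside the families, ZK1251.14, C35D6.6 and M163.13 had a summit in replicate 1 at signals from 13.5 to 14.3, close to the smallest replicate 1 signal of 13.3.

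**Figure D2:**
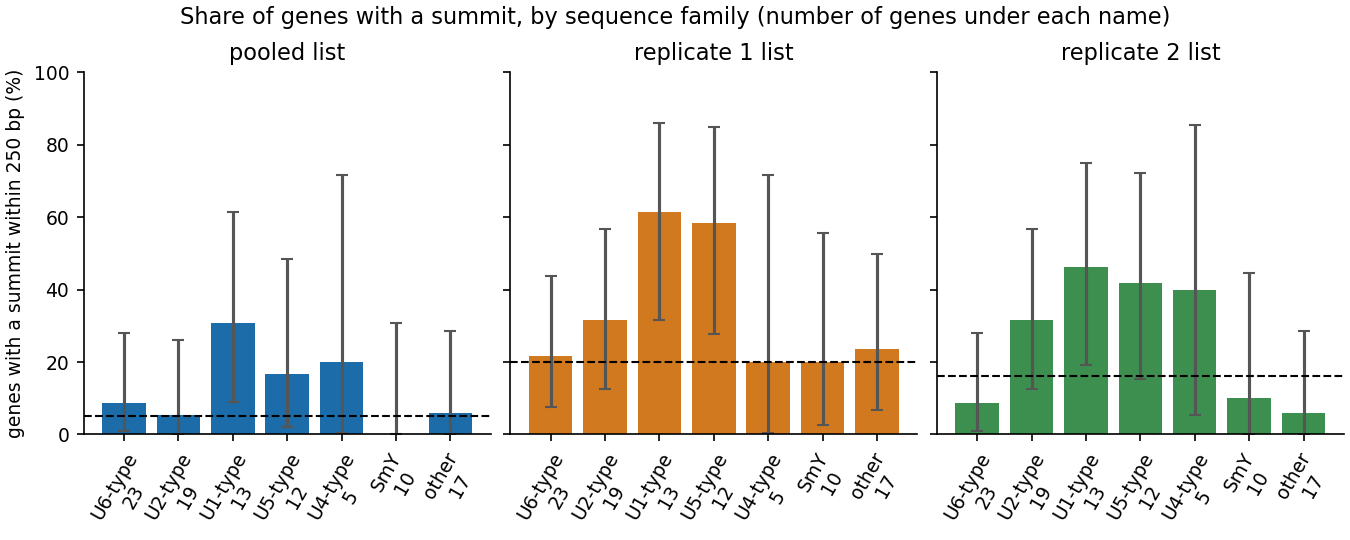
Percentage of the genes of each sequence family with a summit within 250 bp, in the pooled, replicate 1 and replicate 2 lists. Bars start at 0, whiskers are exact 95% intervals over genes, numbers under the names are genes, and the dashed lines at 5.12, 20 and 16.2% are the shares of nuclear genes of 22 to 187 bp. The U1-type bars stand highest in each panel and the U6-type bars are lower.

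By family, U1-type genes had summits most often in each of the 3 lenient lists. A pooled summit was found at 4 of 13 U1-type genes (30.8%, interval 9.09 to 61.4%), and a summit at 8 (61.5%, 31.6 to 86.1%) in replicate 1 and 6 (46.2%, 19.2 to 74.9%) in replicate 2. Each of these intervals lay above the share of genes of the same length in its list. The overlapping genes T27E4.22 and T27E4.12 share 1 summit in replicate 1, and the interval there counts it for each. The 8 genes thus had 7 distinct strongest summits, at 7 of 11 loci. U5-type genes had 2 of 12 in the pooled list (16.7%, 2.09 to 48.4%). In replicate 1 they had 7 (58.3%, 27.7 to 84.8%), and in replicate 2 they had 5 (41.7%, 15.2 to 72.3%). Their replicate 1 interval also lay above the share of genes of the same length, while those of the pooled list and replicate 2 included it. U4-type genes had 1 of 5 in the pooled list (20%, 0.505 to 71.6%), 1 in replicate 1 and 2 in replicate 2, and U2-type genes 1, 6 and 6 of 19 in the same lists. U6-type genes, the largest family, had 2 of 23 (8.7%, 1.07 to 28%), 5 (21.7%, 7.46 to 43.7%) and 2 (8.7%, 1.07 to 28%), with the share of genes of that length inside each interval, and the strongest snRNA region of all belonged to one of them. Both replicates had a summit at 5 U1-type, 4 U5-type, 3 U2-type, 2 U6-type and 1 U4-type gene, at no smy gene, and at mir-1831. The intervals of all families overlapped in the pooled list, and differences between families were not tested.

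Summits were concentrated close to the genes. Within 250 bp the pooled list had 0.209 summits per kb, from 250 to 500 bp it had 0.0202, and from 2000 to 5000 bp it had 0.00673, against 0.0122 over the nuclear genome. Replicate 1 had 0.723 summits per kb within 250 bp and 0.141 in the next 250 bp, against 0.177 over the genome. Replicate 2 had 0.45 and 0.0404, against 0.126. A summit near more than 1 snRNA gene was counted for each.

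**Figure D3:**
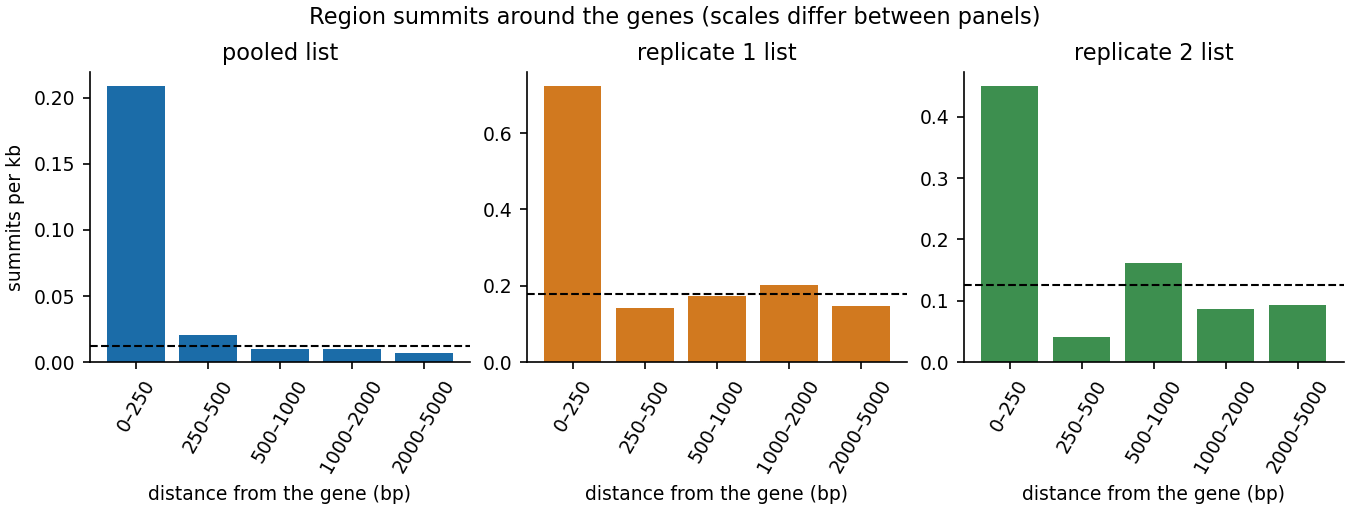
Region summits per kb in 5 ranges of distance from the 99 snRNA genes, in the pooled, replicate 1 and replicate 2 lists, each on its own scale that starts at 0, with the nuclear genome as a dashed line. The first 250 bp hold 0.209, 0.723 and 0.45 summits per kb and stand above all other ranges in each list.

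Most of the strongest summits in the pooled list lay on the downstream side of the gene. With mir-1831 left out, since its summit is that of sup-39, 1 of 10 snRNA genes had it upstream, 3 inside and 6 downstream of the gene, with a median of 162.5 bp after the 5′ end (170 bp with mir-1831). At tRNA genes the same counts were 45, 57 and 42, and at snoRNA genes 31, 10 and 9. At the 5 spliced-leader genes with a pooled summit they were 1, 2 and 2. The median offsets from the 5′ end were 35, -31 and 95 bp for tRNA, snoRNA and spliced-leader genes. The snRNA counts in replicate 1 were 11, 9 and 12, with a median of 82 bp, so the sides were closer to even there. The 11 upstream count the shared summit of T27E4.22 and T27E4.12 for each gene. In replicate 2 they were 4, 4 and 14, with a median of 187.5 bp. U1-type genes had their summit downstream in 3 of 4 genes in the pooled list, 5 of 8 in replicate 1 and 5 of 6 in replicate 2. No U6-type gene had it downstream in any list, with 4 of 5 upstream in replicate 1. These counts were not tested, and they rest on few genes.

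The strongest summit of a gene often lay at another place in the other replicate. Over the 15 genes with a summit in both, mir-1831 left out, the distance between the replicate summits ran from 0 to 356 bp with a median of 106 bp, about the length of a gene. It was 0 bp at W05B2.8, 7 bp at H27M09.6 and 27 bp at sup-6, against 356 bp at C52E4.8, which had 1 summit in each replicate. At F38E11.10 it was 238 bp, but a second replicate 1 summit there lay 39 bp from the one of replicate 2. Several genes had a pair of summits. This was so for 2 of 11 genes in the pooled list, 12 of 33 in replicate 1 and 5 of 23 in replicate 2, and none had more than a pair. The share of all nuclear genes with a pair is not given here, so pairs cannot be called particular to snRNA genes. At W05B2.8 and sup-6, which had a pair in all 3 lenient lists, the summits were 199 to 234 bp from each other. The smallest distance between neighbouring summits was 199 bp in each of these lists.

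**Figure D4:**
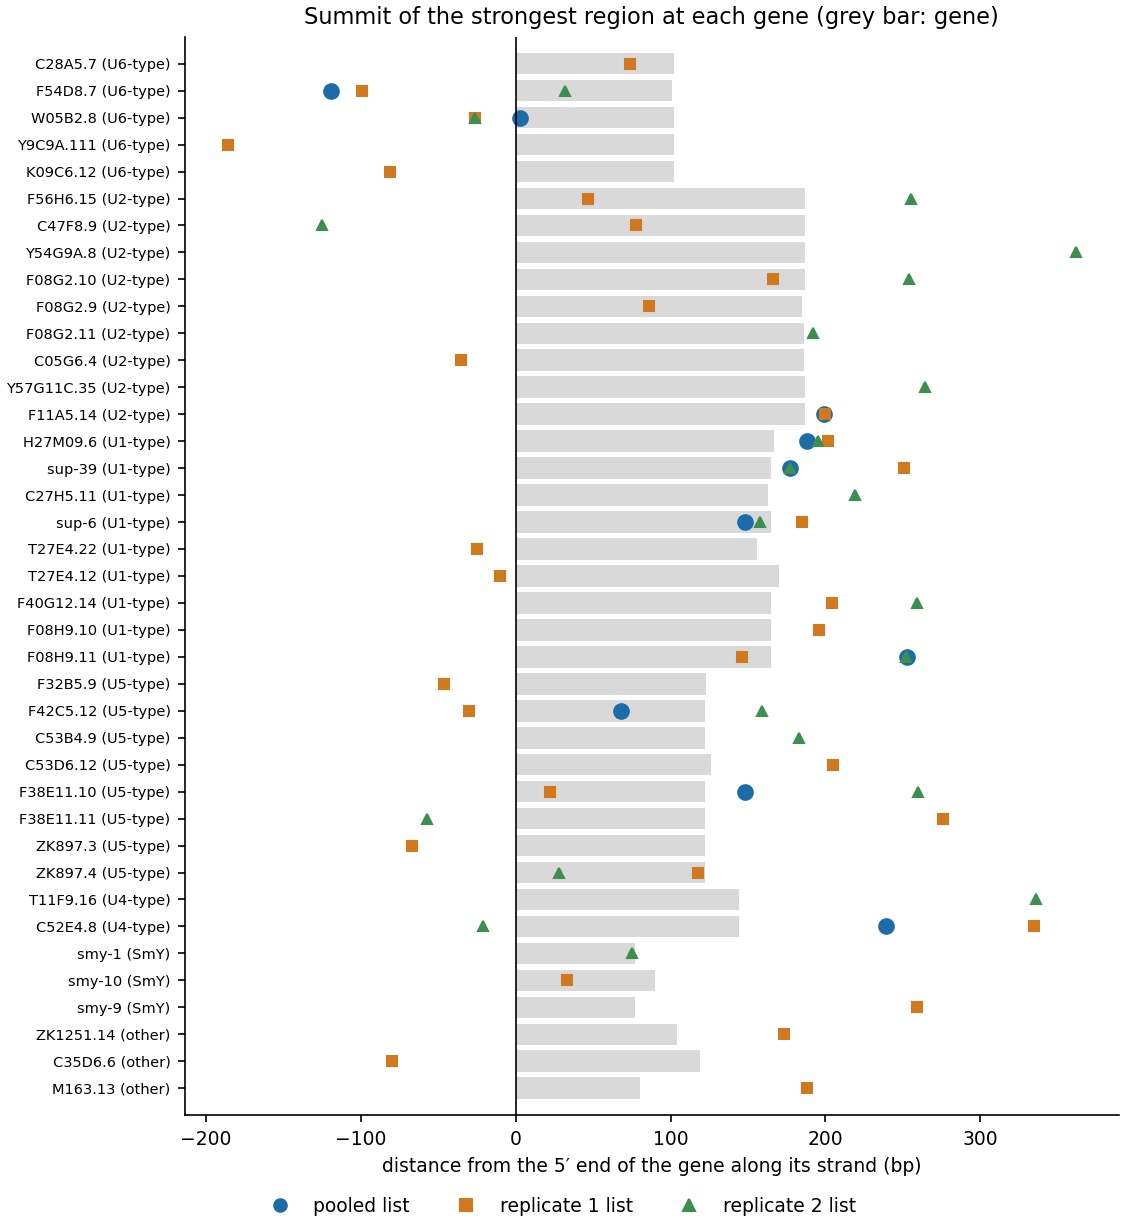
Distance in bp from the 5′ end of each snRNA gene, along its strand, to the summit of its strongest region, for genes with a summit in the pooled (circles), replicate 1 (squares) or replicate 2 (triangles) list, with the gene as a grey bar. The summits of W05B2.8 lie from 26 bp upstream to 3 bp inside, those of sup-6 at 148 to 185 bp, and those of C52E4.8 spread from 21 bp upstream to 335 bp. mir-1831 is not drawn.

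Copies of 1 snRNA can take each other's reads, and how the authors placed reads that match several copies is not given in the sources used here. Over the snRNA genes with a value, a median of 21% of the 31-base words of a gene occurred once in the genome, while the median for the 250 bases on either side was 100%. W05B2.8 had no such word in its body. It was 1 of 14 genes with exactly the same sequence, and of the other 13 none had a summit in the pooled list or in replicate 2 and 3 had one in replicate 1. Both 250 bp flanks of W05B2.8 were 100% unique. The 6 identical genes K09B11.11 to K09B11.16, which lie within 8062 bp of chromosome IV in introns of mam-3, had no region in any list. Their upstream flanks were 22.7 to 52.3% unique and their downstream flanks 66.8 to 100%. Another copy, Y17G9A.90, had no region in any list either, and both of its flanks were 100% unique, as were those of 1 of the 3 copies with a replicate 1 summit.

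Of the 66 genes with under 50% unique words in their bodies, 7 (10.6%) had a pooled summit, 23 (34.8%) one in replicate 1 and 17 (25.8%) one in replicate 2. Of the other 33 genes the numbers were 4 (12.1%), 10 (30.3%) and 6 (18.2%). These 33 include mir-1831, which is shorter than a 31-base word and has no value. Its regions are those of sup-39, a gene of the first group, so they are counted on both sides in all 3 lists. The shares thus lay close to each other in the pooled list. Both flanks were at least 90% unique at 31 of the 40 genes with a summit in a replicate and at 29 of the 59 genes without one. The part of read placement in these counts was not tested.

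Promoters were read as the 250 bases before to 50 after the 5′ end, on both strands. TGTCGG, letters of the proximal sequence element as recalled from general knowledge, occurred at 32.3% of the snRNA genes and at 6.97% of the 46884 nuclear genes with a whole window. It was found at 73.7% of U2-type, 60% of U4-type, 53.8% of U1-type, 25% of U5-type and 8.7% of U6-type genes. On the strand of the gene it was present at 30 genes, in all of them at a start between 75 and 40 bases upstream, with a median of 47. In the sequences printed above it stands in sup-6, C52E4.8 and F11A5.14.

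GCGNAACCCG, the letters that sup-6 and sup-39 share upstream of the gene, with N where they differ, was chosen after the upstream sequences had been read. It occurred at 29.3% of the snRNA genes and at 0.243% of all windows. Its share was 91.7% among U5-type, 61.5% among U1-type and 50% among smy genes, and no U2-type gene held it, with a median start 62 bases upstream. The U1-type share includes sup-6 and sup-39, which hold it by construction. The share of all snRNA genes also counts the match of sup-39 again at mir-1831. TATATAA was likewise chosen after the upstream sequences had been read. It was found at 69.6% of U6-type genes, against 8.07% of all windows, with a median start 31 bases upstream. No U1-, U4- or U5-type gene held it. TATAAA, which can overlap TATATAA, occurred at 31.3% of the snRNA genes and at 37.4% of all windows. TTTTT occurred at 77.8% against 96.8%, and the B box of RNA polymerase III genes at 2.02% against 1.16%.

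TGTCGG was found at 45.5% of the 11 genes with a pooled summit and 30.7% of the 88 without. The same shares were 18.2% and 23.9% for TATATAA, 36.4% and 30.7% for TATAAA, 100% and 75% for TTTTT, and 9.09% and 1.14% for the B box. The B box was found at 1 gene in each set. Among the 11 it was F54D8.7, where the match started 112 bp upstream of the gene. Its strongest summits lay 119 bp upstream in the pooled list, 99 bp upstream in replicate 1 and 32 bp inside the gene in replicate 2. GCGNAACCCG was built from sup-6 and sup-39, which are among the 11, so it was not compared in this way. TATATAA was also chosen after upstream sequences had been read, so its shares are a description only. With 11 genes these shares were not tested, and a match is no evidence of binding by a factor.

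Of 63 protein-coding genes for snRNA transcription and snRNP assembly (Sm and LSm proteins, SNAPc, Integrator, snRNP proteins, assembly factors and RNA polymerase III), 57 were matched by name. None had a summit of the optimal or pooled list within 250 bp of its 5′ end, where the shares of protein-coding genes were 0.0901% and 0.811%. Replicate 1 had one at 5 of the 57 genes and replicate 2 at 3, where the shares of all protein-coding genes were 9.61% and 7.14%. These counts were not tested against those shares, and the genes are named here after their values were seen. They were snr-5 and snr-6 (Sm proteins) and prmt-5 (an arginine methyltransferase that acts on Sm proteins in human cells) in replicate 1, lsm-8 in replicate 2, and lsm-7 and ints-8 in both.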

How the data were processed

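ChIP-seq of tagged SDZ-38 in whole young adult worms was deposited as lists of regions for 2 replicates, 1 pooled list and 1 optimal list. Per the deposited file notes, the replicate lists hold peaks and background made from that replicate's alignment and a control alignment, and serve as input for the irreproducible discovery rate procedure. The signal value is a score of the authors, deposited with no stated scale. It was used to describe and rank regions within a list. The authors' −log10 q column served for 1 alternative ranking. Which aligner and peak caller were used is not given in the sources used here. Alignments were not analysed here, so the depth is unknown, and the precision of a share is set by the number of genes.

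Lists of build ce11 (102 optimal, 1242 pooled, 17743 replicate 1 and 12648 replicate 2 regions) were joined to RefSeq genes of WBcel235, and ranks count all regions, the mitochondrial ones included. Lists of build ce10 were not used, as no genome of that build was at hand. Positions are 1-based. All 99 genes lay at the same place in the Ensembl annotation of this build, 25 under another name. Families came from single linkage of pairwise identities (edlib 1.3.9.post1). Python 3.11.15, numpy 2.4.6, pandas 2.3.3 and scipy 1.17.1 were used, and the join was tested on simulated data. Intervals are exact Clopper-Pearson 95% intervals and cover counting error only. There is 1 group, so no test was run and no condition was compared. The rule named every gene with an optimal or pooled summit, and up to 10 genes with a summit in both replicates but none in the pooled list. The other genes named, among them those of the 1000 strongest regions, were chosen after their values were seen. The genes, lists and families were chosen with earlier results of these data known. The motifs GCGNAACCCG and TATATAA and the comparison with genes of the same length were added after seeing the data. Some gene sequences are not reported here. The alternatives tried were other distances, region overlap, stronger regions, loci counted once, genes near other short RNA genes or with repeated bodies left out, single replicates, other rankings and a 90% family threshold.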

Additional observations from a re-analysis of the deposited data

How the results depend on the processing

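Of 81 values recomputed under alternatives, 61 kept to the value reported within its spread, or for counts within 1.5 times, and 20 moved. The counts at 100 bp and at 500 bp were all within 1.5 times of those reported. Overlap of a region with the gene gave the same counts as reported. With median region widths of 456 to 484 bp, overlap is nearly the 250 bp rule itself, so it is hardly a separate check. At 1000 bp, 39 genes had a summit in replicate 2. The regions above the median signal of replicate 1 left 21 genes, and the 1000 strongest regions left 9 in replicate 1 and 7 in replicate 2, by construction fewer. Leaving out genes with repeated bodies, which leaves 33 genes, gave 1 gene in the optimal, 4 in the pooled, 10 in the replicate 1 and 6 in the replicate 2 list. The pooled and replicate counts still include mir-1831, although sup-39, whose regions it shares, was left out. A single replicate in place of both, with its longer lenient list in place of the optimal or pooled list, gave 23 to 33 genes. With mir-1831 counted the median summit offset was 170 bp in the pooled list, 86 bp in replicate 1 and 183 bp in replicate 2, and 162.5 bp in the pooled list without it, an alternative chosen after seeing the data. Families at 90% identity moved 1 gene out of the U6-type family, and 9.09% in place of 8.7% of it had a pooled summit. Of 33 alternative rank values 8 moved, at sup-6, W05B2.8, F08H9.11 and F11A5.14. No paired analysis was possible because there is 1 group. Unknown depth, unknown handling of repeated reads and the few genes per family limit all shares.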
